A study of Mus musculus with 8 samples.

Results

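The genes described here encode the parts of the lysosome and of the vacuolar proton pump (V-ATPase) that acidifies it. They were taken as a list of 35 named genes out of 27318 gene identifiers in the deposited count tables, with symbols matched to mouse Ensembl identifiers. The rule sets no threshold on a measured value, but the genes were chosen with earlier results of these data known. The list holds 5 genes of the membrane sector of the pump (V0), 8 genes of its cytosolic sector (V1), 2 accessory subunits, 6 membrane proteins, 7 cathepsins, 4 glycosidases, 2 lipid-handling cofactors and 1 transcriptional regulator.

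The data were CEL-seq2 libraries, which copy the 3′ end of polyadenylated RNA of single cells, from mouse bone marrow cells of the LSK gate. This gate takes cells that lack lineage markers and carry Sca1 and cKit, the fraction with blood stem cells and early progenitors. Cells had been enriched with magnetic beads for cKit (CD117) and index-sorted 1 per well into plates of 384 wells, so each well has both counts and the recorded intensity of its surface proteins. All 8 plates, 4 named LC and 4 named LCE, came from Dach1-GFP mice, and the protocol lists mice of 8 to 16 weeks. In these mice a biotin tag precedes the stop codon of Dach1, an IRES-GFP follows it, the neomycin cassette was removed with Flpe recombinase, and the line goes back to a targeted C57BL/6 embryonic stem cell clone. There was no treated or wild-type arm: every comparison was made within plates, between the wells in the highest and the lowest tercile of a recorded protein. The labels do not say how many animals gave the cells of a plate, so a p-value reflects how plates vary, part of which may be technical.

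The V-ATPase is a rotary machine. Its V1 sector hydrolyses ATP in the cytosol, and the turning of the rotor drives protons through the V0 sector into the lumen. The low pH activates cathepsins and glycosidases, which digest protein and sugar chains delivered by endocytosis and autophagy, and the lysosomal surface is where the kinase complex mTORC1 senses nutrients. In blood stem cells, lysosomes are known as stores that help keep cells quiescent, while in macrophages, mast cells, platelets and antigen-presenting cells they are enlarged or turned into secretory or antigen-loading compartments.

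Many lysosomal genes are known to carry in their promoters the palindrome TCACGTGA, an E-box to which the regulator encoded by Tfeb binds, so the promoters were read for it first. RefSeq promoter sequences (assembly GRCm38.p6, 250 bases before to 50 bases after each start) were found for 29 of the 35 genes. TCACGTGA, which reads alike on both strands, was present in 7 of these 29 (24.1%), against 1.12% of the 27025 genes with a promoter sequence. The windows of 5 of them are shown, because they belong to the pump, the calcium channel and the protease described below, with the palindrome in capitals, each in the direction of its gene.
Atp6v0d1: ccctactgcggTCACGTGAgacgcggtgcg
Atp6v1a: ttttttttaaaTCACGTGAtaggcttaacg
Atp6v0e: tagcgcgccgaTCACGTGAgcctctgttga
Mcoln1: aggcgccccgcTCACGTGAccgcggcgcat
Ctsd: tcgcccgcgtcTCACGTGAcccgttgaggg
These lie at chr8:105566050-105566079 (minus strand, palindrome beginning 4 bases before the start), chr16:44139373-44139402 (minus strand, 132 bases before), chr17:26676387-26676416 (plus strand, 2 bases after), chr8:3500462-3500491 (plus strand, 46 bases before) and chr7:142387908-142387937 (minus strand, 99 bases before), in that order. Each distance is to the first base of the palindrome, so that of Atp6v0d1 runs across the start. Ctsa and Gla were the other 2 members with the palindrome. Its core CACGTG, which every TCACGTGA also holds, was in 11 of 29 members (37.9%) and in 8.09% of all genes, and the 4 members with the core alone were Atp6v0b, Lamp1, Ctsl and Gaa. A match describes the letters of a window and does not show binding.

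The 3 genes called in the most comparisons below, Cd63, Ctss and Psap, held no E-box core in these windows. Ctss, the gene of the endosomal protease cathepsin S, was 1 of 3 members (with Atp6v1d and Lamp1) with the letters of an interferon regulatory factor element, GAAA repeated after any 2 bases, on either strand (10.3% of 29, against 3.99% of all genes). This motif was chosen after the values were seen. The 250 bases before the starts of Ctss and of Cd63 are shown because the differences of these genes by a recorded protein were the largest among the members. The motif of Ctss is in capitals and begins 21 bases before its start.
Ctss: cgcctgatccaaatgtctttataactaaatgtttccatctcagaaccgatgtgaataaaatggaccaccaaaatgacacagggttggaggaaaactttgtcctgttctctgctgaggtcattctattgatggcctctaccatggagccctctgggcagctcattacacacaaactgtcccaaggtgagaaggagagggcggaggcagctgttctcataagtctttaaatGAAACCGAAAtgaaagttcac
Cd63: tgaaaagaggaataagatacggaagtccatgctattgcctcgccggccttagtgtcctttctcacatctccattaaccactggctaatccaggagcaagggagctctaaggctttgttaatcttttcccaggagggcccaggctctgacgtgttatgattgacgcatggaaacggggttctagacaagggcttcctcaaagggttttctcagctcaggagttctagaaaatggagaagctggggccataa
The Ctss stretch is chr3:95526536-95526785 and the Cd63 stretch chr10:128909095-128909344, both on the plus strand. The Cd63 stretch held none of the 3 motifs searched.

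Of the sorted wells, 2700 passed the filters, 332 to 340 per plate, with 2075328 to 5192543 counts per plate. The median well held 11586 to 13398 counts on LC plates and 5644.5 to 7513.5 on LCE plates, so values from LCE plates rest on fewer counts. In 64 of these wells, 54 on LC and 10 on LCE plates, the macrophage genes C1qa, C1qb and C1qc together had 3 or more counts; these are called C1q wells, were left out of every comparison by surface protein and are described on their own. The transcripts of the sorted proteins followed the recorded intensities: Ly6a, which encodes Sca1, was 1.94 ± 0.12 higher on the log2 scale in the Sca1-high arm, Cd48 1.47 ± 0.14 in the CD48-high arm and Flt3 2.15 ± 0.09 in the CD135-high arm. Slamf1, which encodes CD150, had 41 counts in the CD150-high and 7 in the CD150-low arm and could not be tested. Dach1 itself fell by 1.84 ± 0.17 in GFP-low wells (13.5 ± 7.99 against 51.1 ± 16.5 CPM, lower on 8 of 8 plates). Here the value after ± is the standard error for a log2 difference and the SD over plates for a CPM, and CPM is counts scaled to 1e6 for a plate and arm.

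Most of these genes were sparsely counted. Of the 35, 32 had a count in fewer than 50% of the 2636 wells that were not C1q wells. The exceptions were Lamp1 (58.3%), which encodes a main glycoprotein of the lysosomal membrane, Atp6v1f (56.0%), a subunit of the pump's rotor stalk, and Psap (53.8%), the precursor of the saposins that lift lipids to their hydrolases. At the other end stood Atp6v0c, the proteolipid that forms the proton-carrying ring, with 8 counts in all. Its pseudogenes Atp6v0c-ps2 and Atp6v0c-ps1 had 18 and 4 counts, and reads of near-identical copies may have been split or dropped before deposit, so its level is uncertain. Gla, which encodes the alpha-galactosidase lost in Fabry disease, had 164 counts and Tfeb 167. These 3 genes were too sparse to test in any comparison, and 32 members could be tested over the 8 plates. Atp6v0a1, a V0 subunit that steers the pump to its membrane, dropped out too where only the LCE plates were used, which left 31.

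Levels over whole plates differed between the plate sets for a part of the list. For 10 of the 32 tested members the 4 LC plates all stood above the 4 LCE plates, where 22.5% of all tested genes did so, and for 2 members the LCE plates all stood above the LC plates, where 12.5% of genes did. Psap was at 70.5 ± 6.63 CPM on LC plates and 141 ± 3.94 on LCE plates, and Npc1, the cholesterol exporter of the lysosomal membrane, at 19.3 and 31.9. In the other direction, Ctsz, a carboxypeptidase of the cathepsin family, was at 73.1 ± 3.73 CPM on LC plates and 29.8 ± 3.98 on LCE plates, and Gusb, the beta-glucuronidase, at 103 ± 5.38 and 58.7 ± 7.84. Hexa, a subunit of beta-hexosaminidase, was at 55.6 and 30.8 CPM and the V0 subunit gene Atp6v0b at 70.7 and 42.2. Plate set and depth cannot be told apart here, so no test was made between sets, and the comparisons below stay within plates. The accessory subunit gene Atp6ap1 (38.5 ± 2.57 CPM over 8 plates) and Atp6v0d1, which couples the rotor to the membrane ring (41.2 ± 3.62), varied least relative to their own means among the 35.

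**Figure D1:**
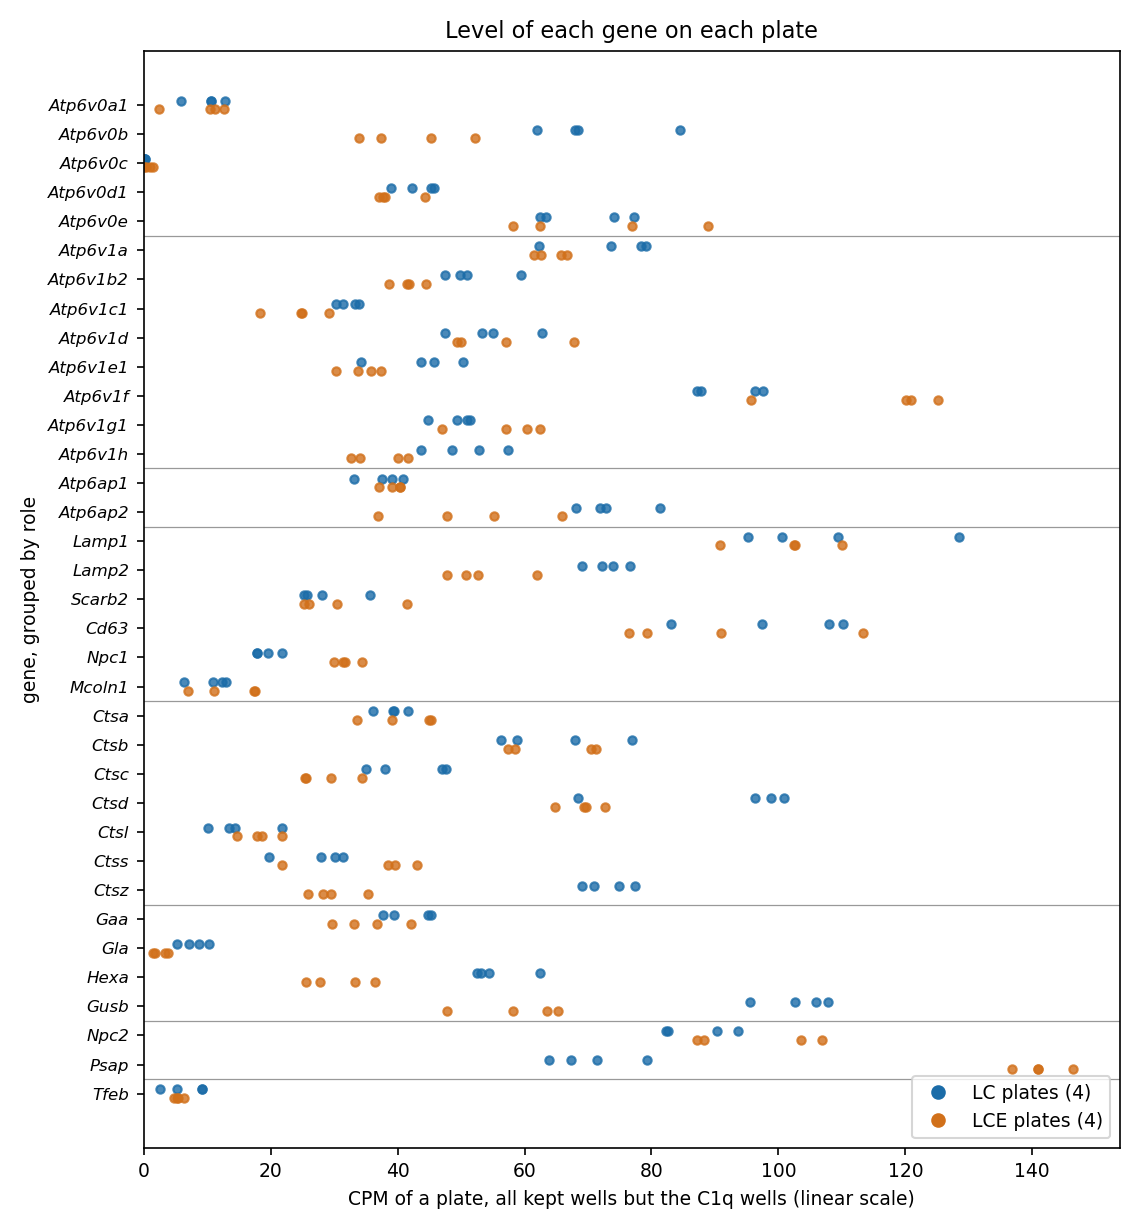
Level of each of the 35 genes (rows, grouped by role) on each plate, in CPM over all kept wells except the C1q wells, on a linear axis; each dot is 1 plate, coloured by plate set. The LCE plates sit above the LC plates for Psap and Npc1 and below them for Ctsz, Gusb and Hexa, while the dots of Atp6ap1 and Atp6v0d1 lie together.

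Dach1-GFP gave the largest differences within the list. Dach1-GFP-low wells had less Cd63 and more Ctss and Psap than GFP-high wells, and none of the 12 tested V0 and V1 genes passed the test. Among the 32 tested members 3 were higher and 2 lower in GFP-low wells, where 3.68% of all 10231 tested genes were called higher and 4.02% lower. At these shares the lack of a call among 12 V0 and V1 genes says little about them. The median member differed by -0.04, and the median of all tested genes by 0.00, and 29 of the 32 differed by less than 0.5 in either direction.

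Cd63 encodes a tetraspanin of late endosomes, lysosomes and secretory granules. In the GFP-low arm its lowest, median and highest plates had 41.4, 49.9 and 85.0 CPM, and in the GFP-high arm 105, 127 and 147. Every GFP-low plate lay below every GFP-high plate. The difference was -1.20 ± 0.10 (adjusted p = 2.7e-15), which is 2.29-fold lower, with -1.18 on LC plates and -1.20 on LCE plates. Cd63 rose over 5 equal groups of wells ordered by GFP, from 47.2 ± 11.4 CPM in the group of lowest GFP to 68.7 ± 15.8, 112 ± 35.1, 108 ± 31.1 and 134 ± 23.6, the third and the fourth group being alike.

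Because CD63 protein is abundant in granules of mast cells, basophils and platelets, the markers of those cells are given beside it. In the GFP-low arm the 7 mast cell and basophil genes of the list of 8 that are in the files summed to 25.2 to 73.3 CPM and in the GFP-high arm to 79.0 to 319, with 3 of 3 tested genes lower. The 9 megakaryocyte and platelet genes summed to 41.9 to 85.2 and 108 to 262 CPM, again with 3 of 3 lower. Without the 831 wells that had 2 or more counts of these genes, Cd63 differed by -1.12 (adjusted p = 1.2e-10), nearly as much as with them. GFP-low wells leaned to high CD135: their median CD135 percentile within the plate was 79.1, against 26.6 in GFP-high wells. With GFP arms drawn separately from the CD135-high and the CD135-low wells of each plate, split at the median, Cd63 differed by -0.59 (adjusted p = 9.3e-06). This matching for CD135 is coarse, and CD135 may still differ between the arms within each of the 2 groups of wells.

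Ctss was counted in 21.2% of wells. Its protein, cathepsin S, trims the invariant chain so that MHC class II can be loaded. The lowest, median and highest GFP-low plates had 28.8, 45.5 and 63.0 CPM, and the GFP-high plates 8.51, 22.3 and 29.5. Ctss was the higher in GFP-low wells on 8 of 8 plates, by 1.12 ± 0.15 (adjusted p = 9.7e-08) or 2.17-fold, though the lowest GFP-low plate reached into the range of the GFP-high plates. The difference was 1.06 on LC and 1.19 on LCE plates. It fell over the 5 groups of rising GFP from 56.1 ± 18.5 to 31.8 ± 12.4, 29.8 ± 8.57, 25.1 ± 9.43 and 18.3 ± 8.10 CPM, so the largest step was between the lowest group and the next.

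Markers of antigen-presenting and B cells moved with it. The 10 dendritic cell genes summed to 692 to 1269 CPM in GFP-low and 279 to 503 in GFP-high arms (6 of 7 tested genes higher), and the 10 B lineage genes to 33.9 to 924 and 20.4 to 172 CPM (8 of 8 higher). Without the 372 wells with 2 or more counts of dendritic genes, Ctss differed by 0.92 (adjusted p = 7.5e-05), and without B lineage and other mature wells by 1.005 (adjusted p = 1.9e-06). In the arms matched for CD135 it differed by 0.76. The stem cell list fell (9 of 9 tested genes lower, 282 to 587 against 600 to 1078 CPM) and the lymphoid priming list rose (11 of 11 higher, 1792 to 3329 against 662 to 1193 CPM), and their part in the result was not tested. In sums over wells, fewer cells of a type and less RNA per cell cannot be told apart.

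Psap had 67.9, 134 and 183 CPM on its lowest, median and highest GFP-low plates and 53.7, 84.3 and 139.6 on the GFP-high plates. The arms overlapped widely because LC and LCE plates differ in Psap, yet within each of the 8 plates the GFP-low arm was higher. The difference was 0.49 ± 0.09 (adjusted p = 3.0e-05), with 0.56 on LC and 0.42 on LCE plates. With every well thinned to 3000 counts it was 0.20 and no longer passed (adjusted p = 0.55).

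The 2 accessory subunits of the pump went opposite ways by GFP. Atp6ap1, which helps to assemble V0 in the endoplasmic reticulum, was at 42.5 ± 7.16 CPM in GFP-low and 31.9 ± 5.26 in GFP-high arms, a difference of 0.45 ± 0.14 (adjusted p = 0.029). Atp6ap2, the (pro)renin receptor, was at 54.6 ± 12.3 and 70.2 ± 16.1 CPM, a difference of -0.35 ± 0.10 (adjusted p = 0.023). Both calls were weak: Atp6ap1 was lost in 17 of 23 alternative settings, and Atp6ap2 had 0.06 (adjusted p = 0.82) in the arms matched for CD135.

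**Figure D2:**
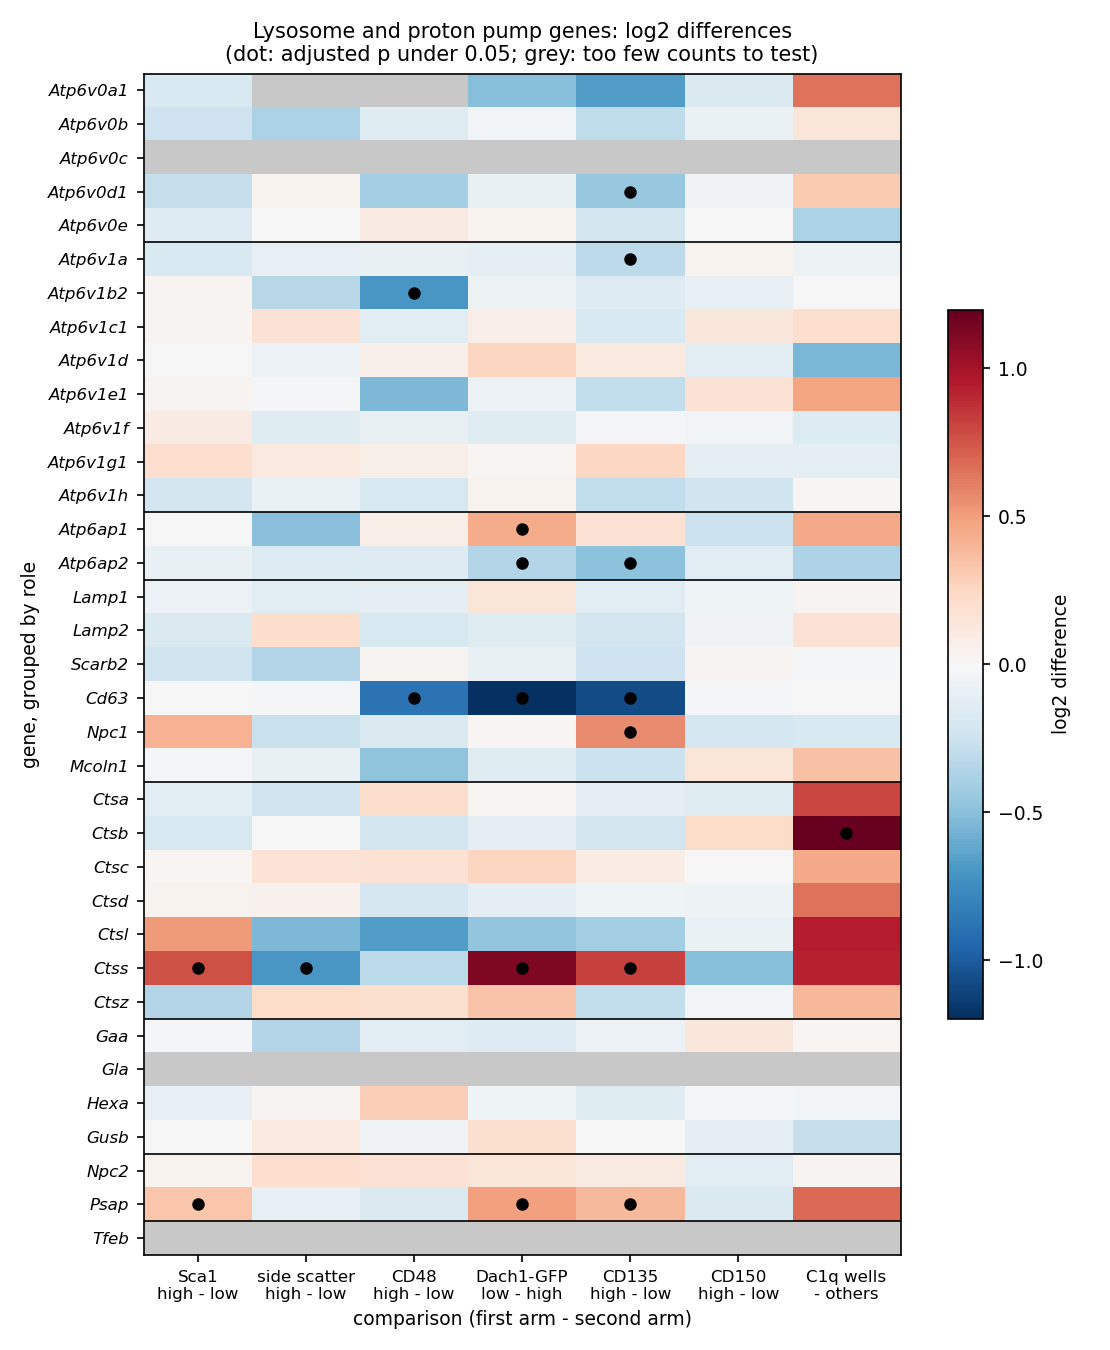
Fitted log2 difference of each gene (rows, grouped by role) in each of the 7 comparisons (columns), coloured from lower to higher in the first-named arm; a dot marks an adjusted p under 0.05 and grey marks genes with too few counts to test. The dots gather in the rows of Cd63, Ctss and Psap, the CD135 column has the most of them, and the CD150 column has none.

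CD135, the FLT3 receptor that marks multipotent progenitors with lymphoid potential, gave the most called members. CD135-high wells had less Cd63, more Ctss, Psap and Npc1, and less of 3 pump genes than CD135-low wells. In all, 3 of 32 tested members were higher and 4 lower, where 6.04% of 10309 genes were called higher and 4.88% lower. The median member differed by -0.17, and 23 of the 32 differences were below 0. By CD150 24 of 32 were below 0, by CD48 21 of 31, by side scatter 20 of 31, by Sca1 18 of 32 and by GFP 17 of 32.

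Cd63 had 45.9, 60.3 and 84.0 CPM on the lowest, median and highest CD135-high plates and 105, 127 and 174 on the CD135-low plates. The arms did not overlap. The difference was -1.07 ± 0.10 (adjusted p = 1.2e-11), 2.10-fold lower. It was -0.76 in arms matched for GFP in the same coarse way (adjusted p = 1.9e-07). Over the 5 groups of rising CD135 it stepped down each time, from 139 ± 28.6 CPM to 112 ± 21.2, 96.0 ± 18.7, 76.2 ± 21.4 and 53.6 ± 12.9. The mast cell and basophil sum was 21.8 to 61.5 against 78.1 to 299 CPM (3 of 3 lower) and the megakaryocyte sum 45.3 to 82.7 against 84.0 to 250 (3 of 3 lower), and without wells of this RNA Cd63 differed by -1.08.

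Ctss had 26.4, 42.0 and 56.8 CPM on the lowest, median and highest CD135-high plates and 10.8, 26.7 and 44.4 on the CD135-low plates. It was higher on 8 of 8 plates with overlapping arms, by 0.81 ± 0.16 (adjusted p = 0.0002). The LC plates alone gave 0.99 and the LCE plates 0.58, which did not pass (adjusted p = 0.12), while the term for a difference between the sets was -0.39 ± 0.31 (adjusted p = 0.77). In the arms matched for GFP the difference was 0.44 and did not pass (adjusted p = 0.10). Without dendritic wells it was 1.21, and without B lineage and other mature wells 1.14, both larger than with them. B lineage RNA was here the lower one in CD135-high wells (8 of 10 tested genes lower and 1 higher). The dendritic sum was 710 to 1027 against 331 to 719 CPM, with 4 of 7 tested genes higher and 1, Cd74, lower. This list includes Flt3, the gene of CD135, so its sum is set in part by the choice of wells.

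Psap was higher in CD135-high wells on 8 of 8 plates, with 64.9, 118 and 164 CPM on the lowest, median and highest plates against 54.8, 87.0 and 138. The difference was 0.39 ± 0.09 (adjusted p = 0.0023). It was 0.56 on the LC plates and 0.22 on the LCE plates (adjusted p = 0.40), and 0.32 without wells of mast cell or megakaryocyte RNA (adjusted p = 0.14).

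The pump genes leaned lower in CD135-high wells. Of the 14 tested pump and accessory genes 11 had a difference below 0, with a median of -0.26, and 3 passed the test. Of all tested genes 49.5% had a difference below 0. A lean below 0 was not particular to CD135. By CD150 10 of 14 pump genes were below 0 (median -0.09), and by CD48 and by side scatter 9 of 13 each (medians -0.13 and -0.08). By Sca1 and by GFP it was 8 of 14 each. Atp6ap2 was at 51.6 ± 12.0 CPM in CD135-high and 71.8 ± 21.1 in CD135-low arms (-0.49 ± 0.11, adjusted p = 0.0014). The 2 subunit genes followed at smaller sizes: Atp6v0d1 was at 34.5 ± 7.30 and 46.8 ± 4.53 CPM (-0.46 ± 0.13, adjusted p = 0.015), and Atp6v1a, the catalytic subunit that binds ATP, at 63.0 ± 8.17 and 77.6 ± 10.8 (-0.32 ± 0.10, adjusted p = 0.032). Each was lower on 7 of 8 plates. Without wells of mast cell or megakaryocyte RNA none of the 3 passed: Atp6ap2 differed by -0.24, Atp6v0d1 by -0.47 and Atp6v1a by -0.08. Erythroid and monocyte or granulocyte progenitor genes were lower in CD135-high wells too (5 of 6 and 8 of 11 tested genes), and their part was not tested. Npc1 rose by 0.56 ± 0.18 (adjusted p = 0.030), from 21.4 ± 9.14 to 30.2 ± 10.01 CPM, higher on 7 of 8 plates. This call was lost in 14 of 22 alternative settings, among them DESeq2, either plate set alone and 5 of the 8 fits with 1 plate left out.

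**Figure D3:**
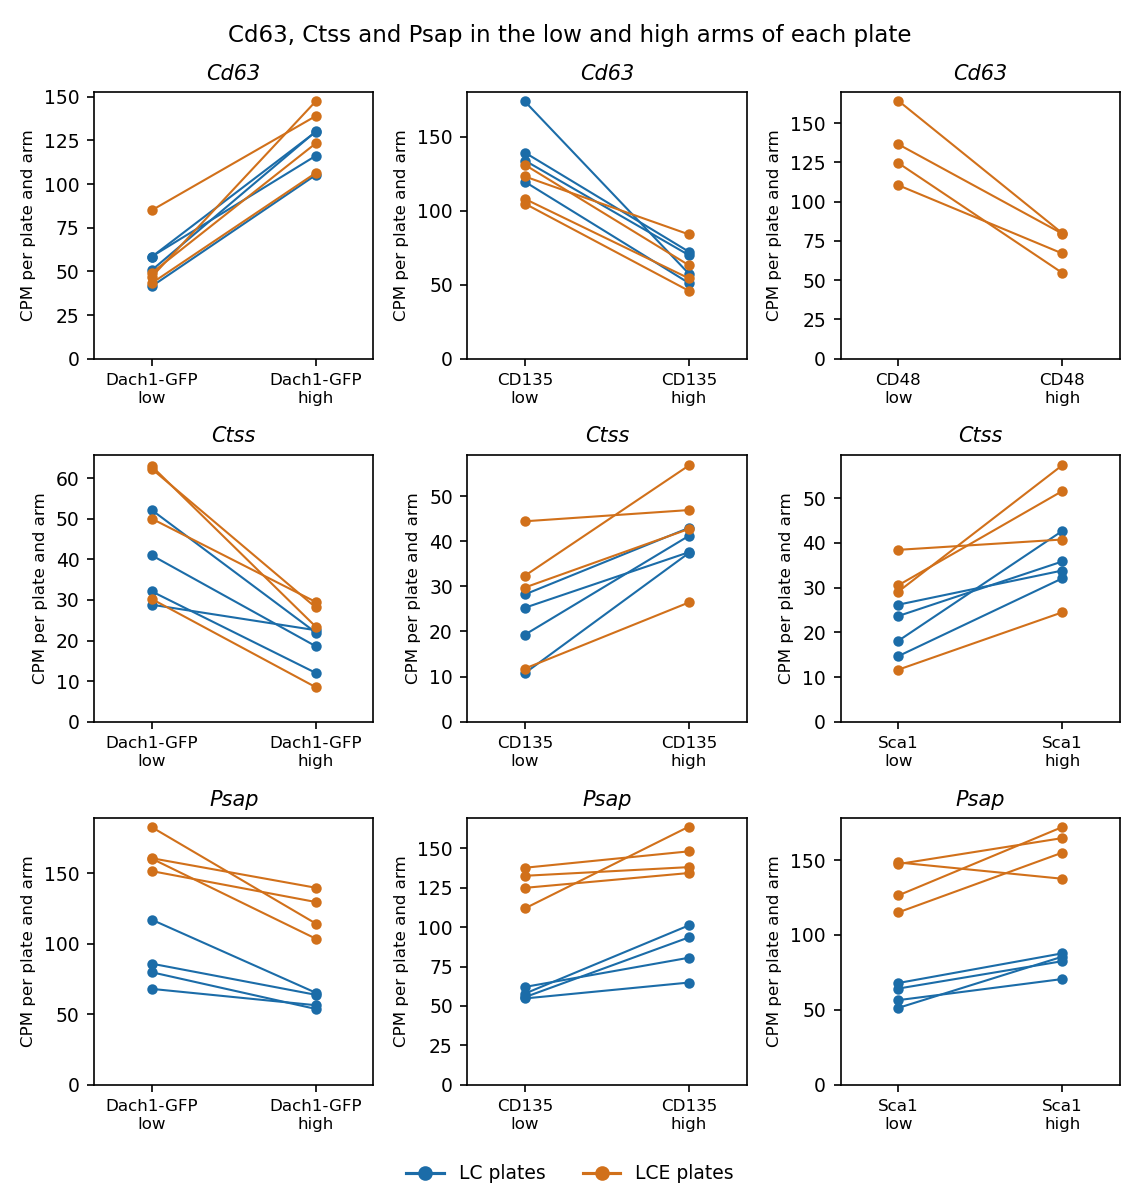
Levels of Cd63, Ctss and Psap, in CPM, in the low and the high arm of each plate, with a line joining the arms of 1 plate and colour for the plate set. For Cd63 every line rises with GFP and falls with CD135 and, on the 4 LCE plates, with CD48; for Ctss and Psap every line falls with GFP and rises with CD135, and with Sca1 all rise but that of Psap on LCE409.

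Sca1-high wells had more Ctss and Psap. Of 32 tested members 2 were higher and 0 lower, where 5.6% of 10075 genes were called higher and 5.96% lower, and 6 members had an unadjusted p under 0.05 in edgeR's test. Ctss had 24.5, 38.3 and 57.3 CPM on the lowest, median and highest Sca1-high plates and 11.6, 24.9 and 38.4 on the Sca1-low plates. It was higher on 8 of 8 plates with overlapping arms, by 0.77 ± 0.15 (adjusted p = 0.00024), with 0.83 on LC plates and 0.68 on LCE plates, where it did not pass alone (adjusted p = 0.059). Over the 5 groups of rising Sca1 it went from 24.9 ± 8.90 CPM to 26.3 ± 16.4, 29.8 ± 10.2, 37.2 ± 9.20 and 42.6 ± 13.9.

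Psap was at 119 ± 41.9 CPM in Sca1-high and 97.1 ± 41.4 in Sca1-low arms, higher on 7 of 8 plates, with plate LCE409 the exception. The difference was 0.33 ± 0.09 (adjusted p = 0.0056), and 0.12 (adjusted p = 0.56) without wells of mast cell or megakaryocyte RNA. Cd63 did not pass the test by Sca1: it was at 95.3 ± 29.0 and 89.4 ± 12.8 CPM, a difference of 0.00 with a 95% interval of -0.20 to 0.21, from -0.22 on LC and 0.36 on LCE plates (term for the sets 0.58 ± 0.19, adjusted p = 0.35). Ctsz came close to the threshold on the lower side, at 43.5 ± 18.2 against 55.6 ± 24.7 CPM (-0.35 ± 0.12, adjusted p = 0.050). Stem cell genes were higher in Sca1-high wells (7 of 8 tested, 666 to 1053 against 346 to 779 CPM) and monocyte and granulocyte progenitor genes lower (7 of 10, 462 to 3161 against 579 to 5401). Lymphoid priming genes were higher (6 of 11, 1367 to 2646 against 974 to 1949 CPM), and B lineage genes lower (5 of 5, 37.0 to 194 against 30.4 to 658). Without B lineage and other mature wells Ctss differed by 0.85, and the part of the other lists in these differences was not tested.

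**Figure D4:**
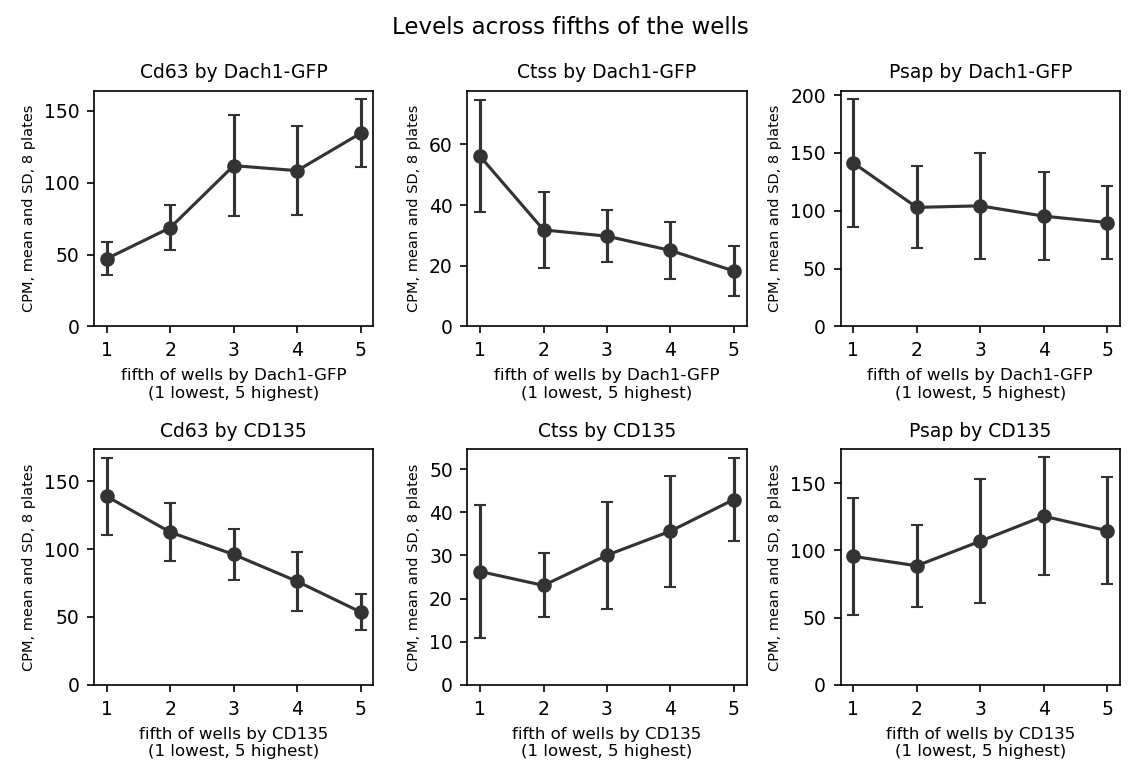
Mean CPM with SD over 8 plates (vertical axes from 0) in 5 equal groups of the wells of each plate, ordered from the lowest (1) to the highest (5) recorded protein. Cd63 climbs with Dach1-GFP from 47.2 to 134 and descends with CD135 from 139 to 53.6, and Ctss descends with GFP from 56.1 to 18.3.

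Side scatter and CD48 were used on the LCE plates alone. Side scatter follows the granularity of a cell. No member was called higher in wells of high side scatter, which at the shares given next says little about the members. Of 31 tested members 0 were higher and 1 lower, where 5.85% of 8924 genes were called higher and 2.4% lower, and 2 members had an unadjusted p under 0.05. DESeq2 called 0. The 1 gene was Ctss, which on plates LCE409, LCE407, LCE408 and LCE410 had 28.9, 33.5, 28.8 and 19.6 CPM in the side scatter-high arm and 54.3, 47.9, 57.4 and 25.4 in the low arm. It was lower in the high arm on all 4 plates, while the low arm of LCE410 lay below the high arms of the other 3 plates. The difference was -0.70 ± 0.21 (adjusted p = 0.017). Without plate LCE409 or without plate LCE408 the call was lost, and with arms matched for forward scatter the difference was -0.71 (adjusted p = 0.12). B lineage genes were lower in side scatter-high wells (8 of 9 tested, 89.9 to 222 against 309 to 732 CPM) and so were 3 of 7 tested dendritic genes. Without B lineage and other mature wells Ctss differed by -0.75 (adjusted p = 0.013). Lymphoid priming genes were lower too (7 of 12 tested, 1394 to 2010 against 2132 to 2423 CPM), and 4 of 6 tested monocyte and granulocyte progenitor genes were higher. The part of these 2 lists was not tested. Side scatter-high wells held more counts (the median over plates of the median well was 7770.5, against 5204 in the low arm).

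By CD48, which is absent from the most primitive stem cells, Cd63 and Atp6v1b2 were lower in high wells. Of 31 tested members 0 were higher and 2 lower, where 6.8% of 9009 genes were called higher and 4.3% lower. Cd63 had 67.0, 54.6, 79.9 and 79.6 CPM in the CD48-high arm of plates LCE409, LCE407, LCE408 and LCE410 and 110.5, 125, 164 and 137 in the low arm, with no overlap. The difference was -0.89 ± 0.13 (adjusted p = 1.3e-06), and -0.999 (adjusted p = 1.4e-05) without wells of mast cell or megakaryocyte RNA. Atp6v1b2, the widely expressed non-catalytic nucleotide-binding subunit of V1, had 31.2, 37.4, 32.0 and 25.8 CPM in the high and 50.2, 45.5, 59.4 and 57.5 in the low arm, again with no overlap. Its difference was -0.70 ± 0.19 (adjusted p = 0.010). The call was lost in 5 of 17 alternative settings, among them DESeq2, thinned wells, scatter-corrected intensities and the fit without plate LCE410. CD48-high wells held more counts (the median over plates of the median well was 7829.5, against 4944 in the low arm). Their median forward scatter percentile was 70.4, against 35.2. Stem cell genes were lower in CD48-high wells (8 of 8 tested, 529 to 601 against 1063 to 1333 CPM). Megakaryocyte genes (2 of 3 tested, 70.1 to 93.7 against 149 to 221 CPM) and erythroid genes (5 of 6, 549 to 603 against 785 to 2092) were lower too, and B lineage genes were higher (6 of 8, 223 to 389.9 against 107 to 217). The part of the stem cell and erythroid lists was not tested, and without B lineage and other mature wells Cd63 differed by -0.85. The median pump gene differed by -0.13, as did the median of all tested members.

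By CD150, a stem cell and megakaryocyte progenitor marker, no member passed edgeR's test: 0 of 32 were called, where 1.32% of 10297 genes were called higher and 0.515% lower, 1 had an unadjusted p under 0.05, and DESeq2 called 0. That gene was Ctss, at 25.7 ± 7.18 CPM in CD150-high and 37.2 ± 10.8 in CD150-low arms, lower on 7 of 8 plates (-0.51 ± 0.15, adjusted p = 0.093). It passed without dendritic wells (-0.64, adjusted p = 0.043) and without B lineage and other mature wells (-0.63, adjusted p = 0.030). Cd63 differed by -0.01, and 31 of the 32 members by less than 0.5. With so few of all genes called by CD150, the lack of a called member says little about the list.

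The term for a difference between LC and LCE plates was called for 0 of 32 members by Sca1, GFP, CD135 and CD150 in edgeR's test, with lowest adjusted p of 0.35, 0.56, 0.29 and 0.39. Over all genes it was called for 23 of 10075, 14 of 10231, 62 of 10309 and 76 of 10297, in that order. At shares this small, 0 calls among 32 members say little about the members. For the differences between arms, the smallest standard errors for a member were about 0.08 and the largest 0.26 to 0.28 over 8 plates. Those of the terms for the plate sets were larger, from 0.16 (Atp6v1f by Sca1) to 0.58 (Atp6v0a1 by Sca1).

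The other 22 tested members were called by none of the 6 recorded measures, nor in C1q wells, and their fitted log2 differences over the 6 measures were as follows. Among the membrane proteins, Lamp1 ran from -0.13 to 0.14, Lamp2, the receptor of chaperone-mediated autophagy in 1 of its isoforms, from -0.22 to 0.21, Scarb2, which carries glucocerebrosidase to the lysosome, from -0.35 to 0.03, and Mcoln1, the calcium channel, from -0.48 to 0.15. The V1 genes Atp6v1f (-0.15 to 0.10) and Atp6v1c1 (-0.18 to 0.17) and the V0 gene Atp6v0e (-0.22 to 0.10) stayed near 0. Atp6v1d ran from -0.13 to 0.26, Atp6v1g1 from -0.12 to 0.25, Atp6v1h, the regulatory subunit, from -0.29 to 0.04, and Atp6v1e1, of the outer stalk, from -0.54 to 0.17. For Atp6v0b (-0.38 to -0.03) and Atp6v0a1 (-0.67 to -0.18, over the 4 measures with a test) every value was below 0, although none passed.

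Of the enzymes and cofactors without a call, Ctsc, the dipeptidyl peptidase that activates granule proteases, ran from -0.00 to 0.26 and Ctsd from -0.20 to 0.05. Ctsa ran from -0.24 to 0.21 and Ctsz from -0.35 to 0.34. Gaa, the glycogen-cleaving acid alpha-glucosidase, ran from -0.35 to 0.13, Hexa from -0.15 to 0.29 and Gusb from -0.11 to 0.19. Npc2, which hands cholesterol to the Npc1 protein, ran from -0.13 to 0.20. The widest span among these 22 was that of Ctsl, a cysteine protease counted in 12.4% of wells, from -0.67 by CD48 to 0.51 by Sca1 (adjusted p = 0.12 and 0.10).

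In C1q wells Ctsb was higher than in the other wells of the same plates, and the other cathepsins had differences above 0 that did not pass the test. The C1q wells numbered 2 to 19 on the 7 plates used. Of the other wells, 21 to 54 per plate had 1 or 2 counts of the C1q genes and stayed in the arm compared with them. Ctsb, a cysteine protease abundant in macrophages, had 132, 187.3 and 302 CPM on its lowest, median and highest plates in C1q wells and 56.4, 58.7 and 77.0 in the other wells. It was higher on 7 of 7 plates without overlap, by 1.19 ± 0.23 (adjusted p = 0.00026), which is 2.28-fold. It was the only 1 of 32 tested members called, where 0.15% of 9993 genes were called higher and 0.06% lower; the median of all genes was -0.13 in this comparison, so the distance of Ctsb from the other genes is larger than its own value.

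All 7 cathepsins had a difference above 0 in C1q wells, from 0.39 to 1.19 with a median of 0.80, against -0.13 over all tested genes. Ctsa, the protective protein of galactosidase and sialidase, was at 80.9 ± 29.3 CPM in C1q wells and 40.0 ± 4.29 in the others, higher on 7 of 7 plates without overlap (0.80, adjusted p = 0.86). Ctsd, an aspartic protease, was at 133 ± 36.7 and 82.3 ± 15.4 CPM, higher on 7 of 7 plates (0.65, adjusted p = 0.60). Ctsl and Ctss had 0.94 and 0.92 but were at 0 in the C1q wells of 1 and 2 plates. Psap was higher on 7 of 7 plates (183 ± 96.8 against 101 ± 38.3 CPM, 0.68, adjusted p = 0.43) and passed in DESeq2 (adjusted p = 0.028) and with edgeR's relative log scaling (adjusted p = 0.012). In edgeR's main setting only Ctsb passed, and with C1q wells defined by 10 or more counts, which left 3, 2 and 3 wells on plates LC188, LC189 and LC190, no member did. The pump genes had a median of 0.01, Lamp1 was at 0.03 and Cd63 at -0.00.

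Of the macrophage genes that played no part in choosing these wells, 5 could be tested and 4 were higher in C1q wells: Vcam1 (3.89), Axl (3.53), Slc40a1 (3.01) and Hmox1 (2.96). The fifth, Cd68, had 1.64 (adjusted p = 0.14). The sum of the whole macrophage list, 545 to 1671 CPM in C1q wells and 57.5 to 91.3 in the others, includes the 3 C1q genes and so is set in part by the choice of wells. The C1q wells also held RNA of the LSK gate list (664 to 1023 CPM, against 913 to 1055 in the others). None of its 5 tested genes was called. Stem cell genes summed to 458 to 869 against 455 to 772 CPM, with none of 8 called. Lymphoid priming genes summed to 1039 to 1613 against 1147 to 1853 CPM, with 1 of 10 lower. Whether a C1q well held a sorted macrophage or a progenitor with macrophage RNA was not tested. Within their plates the C1q wells had a median CD150 percentile of 71.0 to 89.1.

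**Figure D5:**
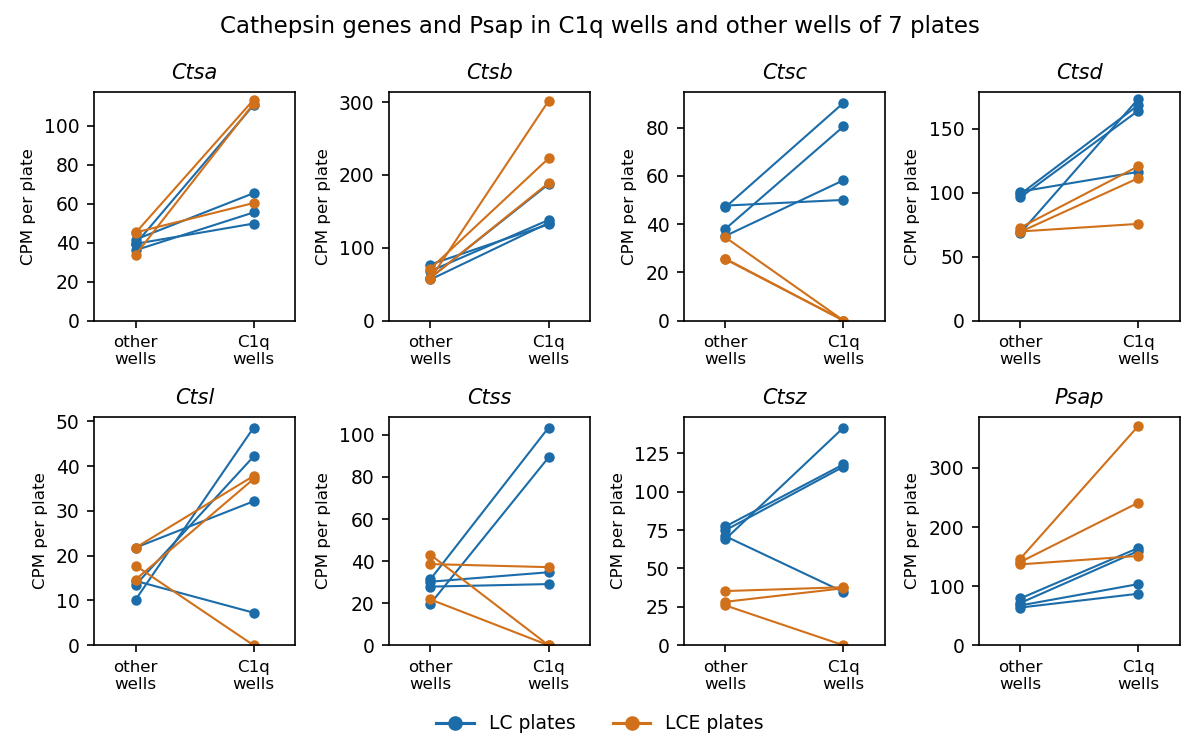
Levels of cathepsin genes and Psap, in CPM, in the C1q wells and in the other wells of 7 plates, with a line joining the values of 1 plate. Ctsb and Ctsa rise on every plate, and the values of the C1q wells, of which a plate had 2 to 19, spread more widely than those of the other wells.

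Other genes of the same pathways were read from lists that hold none of the members, and few of them were called. Of all tested genes, 11.6% were called by Sca1, 10.9% by CD135, 11.1% by CD48 and 8.2% by side scatter. By GFP the share was 7.7%, by CD150 1.8% and in C1q wells 0.21%. At such shares, few calls in lists of this size say little about the lists. Of 22 other pump and assembly genes, 17 were in the files and 10 or 11 could be tested in a comparison. Snx10, a sorting nexin tied to trafficking of the pump, was the 1 gene called, higher by Sca1 (97.7 ± 19.1 against 76.6 ± 17.5 CPM, 0.37 ± 0.09) and by CD135 (90.8 ± 17.4 against 72.1 ± 25.3 CPM, 0.41 ± 0.10). No gene of this list passed by side scatter, CD48, GFP, CD150 or in C1q wells.

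Among the other enzymes and cofactors, 1 was higher and 2 lower of 38 tested by GFP, and 2 were higher and 2 lower of 38 by CD135. Neu1, the lysosomal sialidase that works in a complex with cathepsin A, was at 16.3 ± 3.13 CPM in GFP-low and 10.1 ± 2.94 in GFP-high arms (0.70 ± 0.22), but at 12.2 ± 3.50 in CD135-high and 18.7 ± 8.64 in CD135-low arms (-0.75 ± 0.24). Creg1, a secreted and lysosomal glycoprotein, was lower in both (-0.26 ± 0.08 by GFP and -0.50 ± 0.08 by CD135), and Galc, the galactosylceramidase, was lower in GFP-low wells (-0.79 ± 0.25). Gm2a, the activator of ganglioside breakdown, and Scpep1, a serine carboxypeptidase, rose by 0.30 ± 0.10 and 0.75 ± 0.25 in CD135-high wells. By Sca1 the 1 gene called of 36 was Gpx1, a glutathione peroxidase (-0.23 ± 0.04). By side scatter 0 of 31, by CD48 0 of 31, by CD150 0 of 37 and in C1q wells 0 of 37 passed.

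Of the other membrane genes, 4 were higher and 0 lower of 29 by Sca1, 3 higher and 1 lower of 29 by CD135, 1 higher and 1 lower of 28 by GFP, and 1 higher and 1 lower of 23 by CD48. Laptm5, a lysosomal membrane protein of blood cells, was higher by Sca1 (440.2 ± 44.9 against 369 ± 56.1 CPM, 0.27 ± 0.05), by CD135 (0.38 ± 0.05) and in GFP-low wells (0.16 ± 0.05). Laptm4b, of the same family, was higher by Sca1 (0.96 ± 0.21) and by CD135 (0.71 ± 0.21). Tmem9, a lysosomal membrane protein, was lower in GFP-low (-0.68 ± 0.17) and CD135-high wells (-0.64 ± 0.17). By CD48, Tmem192, of the lysosomal membrane, was higher (1.02 ± 0.33) and Cln3, whose loss causes a juvenile storage disease, lower (-0.79 ± 0.22).

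Of the regulators and genes of mTORC1 docking, 0 of 24 tested were higher and 4 lower by CD135, where 4.88% of all genes were called lower; among the 4 were Tfec (-0.90 ± 0.20), a factor of the Tfeb family, and Borcs5 (-0.92 ± 0.26), a part of the complex that moves lysosomes along microtubules. Lamtor4, of the complex that tethers mTORC1, was the 1 gene of 23 lower by Sca1 (-0.38 ± 0.13), and Fnip1 the 1 of 21 lower by side scatter (-0.87 ± 0.26). Of the sorting and autophagy genes, Ap3s1, a subunit of the adaptor complex that sorts proteins to lysosomes and platelet granules, fell by 1.30 ± 0.15 in Sca1-high and by 1.19 ± 0.14 in CD135-high wells and rose by 1.14 ± 0.25 in side scatter-high and 1.04 ± 0.23 in CD48-high wells. Vamp8, a fusion protein of late endosomes and secretory granules, was lower in GFP-low (92.4 ± 21.2 against 154 ± 28.9 CPM, -0.70 ± 0.08) and CD135-high wells (-0.55 ± 0.09). Uvrag, an autophagy gene, was higher in both (0.40 ± 0.12 and 0.38 ± 0.12). Sqstm1, the autophagy receptor p62, was lower by side scatter (-0.52 ± 0.15), Gabarapl1, of the autophagosome, lower by CD48 (-0.62 ± 0.13), and Gga2, a sorting adaptor of the Golgi, higher by CD150 (0.60 ± 0.15). All comparisons reuse the same wells, so values from different proteins are not independent of each other.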

How the data were processed

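Single cells of 8 plates were measured by CEL-seq2 and index sorting. The deposited count tables hold 1 whole number per gene and well, and the highest was 1532. For the aligner, the counter, the strand setting and the handling of molecular tags, an account is not given in the sources used here. A human assembly, GRCh38, stands in the submitters' processing notes, although the gene identifiers are those of mouse, so no coordinates were taken from the counts. Per the file headers, the deposited sorter values are fluorescence and scatter intensity on a linear scale, and 10 sorter columns were not used. Of 2996 sort records, 18 had no count column, and each plate has the same 383 well names.

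Kept wells had at least 1000 counts, 500 genes and under 20% mitochondrial counts. No doublet caller was run, since 1 cell was sorted per well. Counts were summed per plate and arm (107 to 111 wells) and tested over all genes with edgeR 4.0.16 in R 4.3.3 (quasi-likelihood test with plate as a block, after filterByExpr and TMM), with Benjamini-Hochberg adjustment at 0.05. Adjusted p-values are from this test unless DESeq2 1.42.0 is named. The script was tested on simulated data. Both arms come from the same plate, and within a plate set they deviated together (correlation 0.134 to 0.434 by recorded protein or scatter, and 0.0707 to 0.212 for C1q wells against the others). Python 3.11.15 with pandas 2.3.3, numpy 2.4.6 and matplotlib 3.10.9 did the rest.

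Per-plate values were given for called members of the same sign on every plate (up to 8 per comparison), and from each pathway list up to 2 genes higher and 2 lower of smallest adjusted p were named. The members and lists were chosen with earlier results of these data known. Alternatives were other scaling, no filter, DESeq2, no block, thinned wells, a split at the median, other C1q rules, wells of other cell types left out, matched or scatter-corrected arms, single plate sets and each plate left out.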

Additional observations from a re-analysis of the deposited data

Results flagged for a closer look

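Of 88 sets of values checked for a plate far from the others, 2 had one, and chance flags about 1 in 20 groups. Atp6v0d1 was at 44.3 CPM on plate LCE407, against 37.1 to 38.1 CPM on the other LCE plates. Ctsd was at 68.4 CPM on plate LC189, against 96.3 to 101 CPM on the other LC plates.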

How the results depend on the processing

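Of 18 member results named as called, 4 kept direction and call under every alternative run (Cd63 by GFP, CD135 and CD48, and Ctss by GFP), and 14 lost the call under at least 1. The 1 that reversed was Atp6ap2 by GFP, at 0.063 in arms matched for CD135. The counts of called members (2 by Sca1, 1 by side scatter, 2 by CD48, 5 by GFP, 7 by CD135, 0 by CD150, 1 in C1q wells) changed as follows. DESeq2 gave 1, 0, 1, 3, 4 and 0, and 2 in C1q wells. Without the replicate block they were 0, 0, 1, 2, 1 and 0. Thinned wells gave 0 by Sca1, 1 by CD48, 2 by GFP and 1 by CD135. A split at the median intensity gave 4 by Sca1, 0 by side scatter and 1 by CD150 (Psap). Scatter-corrected intensities gave 1 by Sca1, 1 by CD48, 3 by GFP and 1 by CD135, and the LCE plates alone 0, 3 and 1 by Sca1, GFP and CD135. Matched arms gave 0 by side scatter. Relative log scaling gave 2 and the stricter rule 0 in C1q wells. Leaving out wells of mast cell or megakaryocyte RNA gave 0 by side scatter, 3 by GFP and 2 by CD135, and leaving out dendritic wells 3 by GFP and 1 by CD150; both were chosen after seeing the data. Without B lineage and other mature wells 1 passed by CD150. With each plate left out in turn the counts were 2 to 3 by Sca1, 0 to 1 by side scatter, 1 to 3 by CD48, 3 to 5 by GFP (3 without LC189), 5 to 8 by CD135, 0 by CD150 and 1 in C1q wells.

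Over all genes, the main counts of 1164 (Sca1), 736 (side scatter), 1000 (CD48), 787 (GFP), 1126 (CD135), 136 higher with 53 lower (CD150) and 21 (C1q wells) became, in that order, 465, 135, 214, 430, 563 and 71 with DESeq2 (not C1q), 22, 195, 281, 92 higher with 97 lower, 167, 7 and 13 without the replicate block, and 177, 175, 452, 250, 222 and 52 with thinned wells (not C1q). Without mast cell or megakaryocyte wells they were 489 (Sca1), 444 (side scatter), 430 (GFP) and 417 (CD135), with scatter-corrected intensities 220 (Sca1), 416 (CD48), 443 (GFP) and 402 (CD135), and on LCE plates alone 252 (Sca1), 488 (GFP), 350 (CD135) and 439 (CD150). LC plates alone gave 447 by GFP and 64 by CD150, and matched arms 70 by side scatter. Without a filter 148 genes were called in C1q wells and with the stricter rule 13, where the median of all genes was -0.51 and -0.54. Leaving out plates gave 481 to 593 by side scatter, 599 to 869 by CD48 and 121 to 233 by CD150. 3 members had too few counts to be tested in any comparison.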
